A study of Mus musculus with 6 samples.

Results

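Fatty acid oxidation was described across 31 genes, 19 of the mitochondrial pathway and 12 of the peroxisomal pathway, out of 22962 genes in an RNA sequencing table of mouse alveolar macrophages. The 31 genes were taken by symbol from a list that was chosen with earlier results of these data known. All 31 were found in the data and passed the filter on low values. The mice were C57BL/6, with age and sex not stated in the labels. The groups were 3 libraries from mice that received saline in the trachea (replicates 1, 2 and 3, the controls) and 3 from mice that received bleomycin in the trachea (replicates 1, 2 and 5), with 2 weeks given in the labels as the time of treatment for both, and the cells were washed out of the airways by bronchoalveolar lavage. Bleomycin is a drug that breaks DNA, and instilling it is a common way to produce lung fibrosis in mice. Lavage cells of both groups were plated for 30 min, washed and lysed on the plate, so the samples are cells that adhered, not cells sorted by surface markers. The labels do not say whether each library came from 1 mouse, a pool or repeated sampling, so a p-value covers only how far these samples varied, and some of that variation may be technical. Values are listed in the order of the replicates, 1, 2 and 3 for saline and 1, 2 and 5 for bleomycin.

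Fatty acids are oxidized in both mitochondria and peroxisomes by the same kind of cycle, in which a double bond is made, water is added, the product is oxidized again and acetyl-CoA is split off. Mitochondria take long-chain fatty acids in through the carnitine shuttle and pass the electrons to the respiratory chain, whereas peroxisomes take in very long-chain and branched acyl-CoA through transporters of the ABCD family, shorten them and pass the electrons to oxygen. Alveolar macrophages take up and break down the lipids of lung surfactant, and the nuclear receptor PPAR gamma, a regulator of lipid genes, is needed for their development.

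The libraries held 27654799 to 37147983 reads, and each library's counts were scaled by its own size factor to give what are called normalized counts below. Summed markers of resident alveolar macrophages were 730262 to 890598 in saline and 448506 to 581752 in bleomycin libraries, where 9 of 15 fell and 0 rose (without Chil3, 49.1% of the saline sum, 414039.9 to 418964 and 266507 to 317585). Summed markers of monocytes and monocyte-derived macrophages were 4387 to 5632 and 144648 to 271344, where 12 of 14 rose and 0 fell. Apoe made up 75.5% of that sum in bleomycin libraries, and without it the sums were 2324 to 3153 and 32486 to 67657. Among other cell types, neutrophil markers summed to 1536 to 2185 and 4572 to 5277 (3 of 5 tested rose). Mmp8 made up 61.5% of that sum in saline and 59.1% in bleomycin libraries. Without it the sums were 447 to 1186 and 1894 to 2190. S100a9 and Ltf did not pass, and Ly6g, Elane and Ngp, also on that list, were not in the data. Dendritic cell markers summed to 308 to 678 and 1203 to 2651 (6 of 8 rose), and B cell markers to 16.3 to 22.3 and 99.7 to 1348 (3 of 3 tested rose). T and natural killer cell markers other than Cd2, which made up 99.8% of that list's sum in saline, summed to 20.6 to 38.2 and 237 to 769 (10 of 11 tested rose, Cd2 fell). Epithelial markers summed to 5908 to 7058 and 4877 to 5171, with Epcam making up 66.5% of the saline and 28.2% of the bleomycin sum. Without Epcam, which fell, they summed to 1925 to 2497 and 3172 to 4011 (7 of 11 rose). Fibroblast and smooth muscle markers summed to 303 to 666 and 518 to 1083 (2 of 7 tested rose). Red blood cell markers summed to 9.78 to 12.8 and 8.62 to 126, with 1 tested and 0 called. Beside these counts, 9.76% of all genes tested rose and 3.9% fell. Of these lists Cd8b1, Nkg7, Gzma, Pax5, Igkc, Mpo, Camp, Siglech and Lum had 0 reads in every saline library and none was at 0 in every bleomycin library. The part of this change in cell types in the results below was not tested. In such bulk samples, fewer cells of a type and less RNA per cell cannot be told apart.

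After bleomycin, 4 of the 12 peroxisomal genes fell and none rose, while 0 of the 19 mitochondrial genes passed the test in either direction. The test was limma's on log2(value + 1), with p-values adjusted by the Benjamini-Hochberg method over 13512 genes and a threshold of 0.05. Over all genes tested it called 13.7%, with 3.9% lower and 9.76% higher in bleomycin libraries, or 1319 rises and 527 falls. edgeR's quasi-likelihood test on the read counts called the same 4 members and, over all genes, 3.83% as lower. With quantile normalization there were 1114 rises and 752 falls over all genes, and the same 4 members fell. The 4 genes that fell were Acaa1b, a thiolase that ends each turn of the peroxisomal cycle, Pex11a, a peroxisome membrane protein linked to peroxisome division, Abcd2, an importer of very long-chain acyl-CoA, and Hsd17b4, the D-bifunctional protein that carries out the middle steps of the cycle. The median log2 difference, bleomycin minus saline, was -0.24 over the mitochondrial genes and -0.23 over the peroxisomal genes, beside -0.01 over all genes tested. With 1 library left out the mitochondrial median ranged from -0.27 to -0.16, the latter without bleomycin replicate 2, and the peroxisomal median from -0.37, without bleomycin replicate 1, to -0.17. Of the 31 members, 23 had a negative log2 difference (14 of 19 mitochondrial and 9 of 12 peroxisomal).

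**Figure D1:**
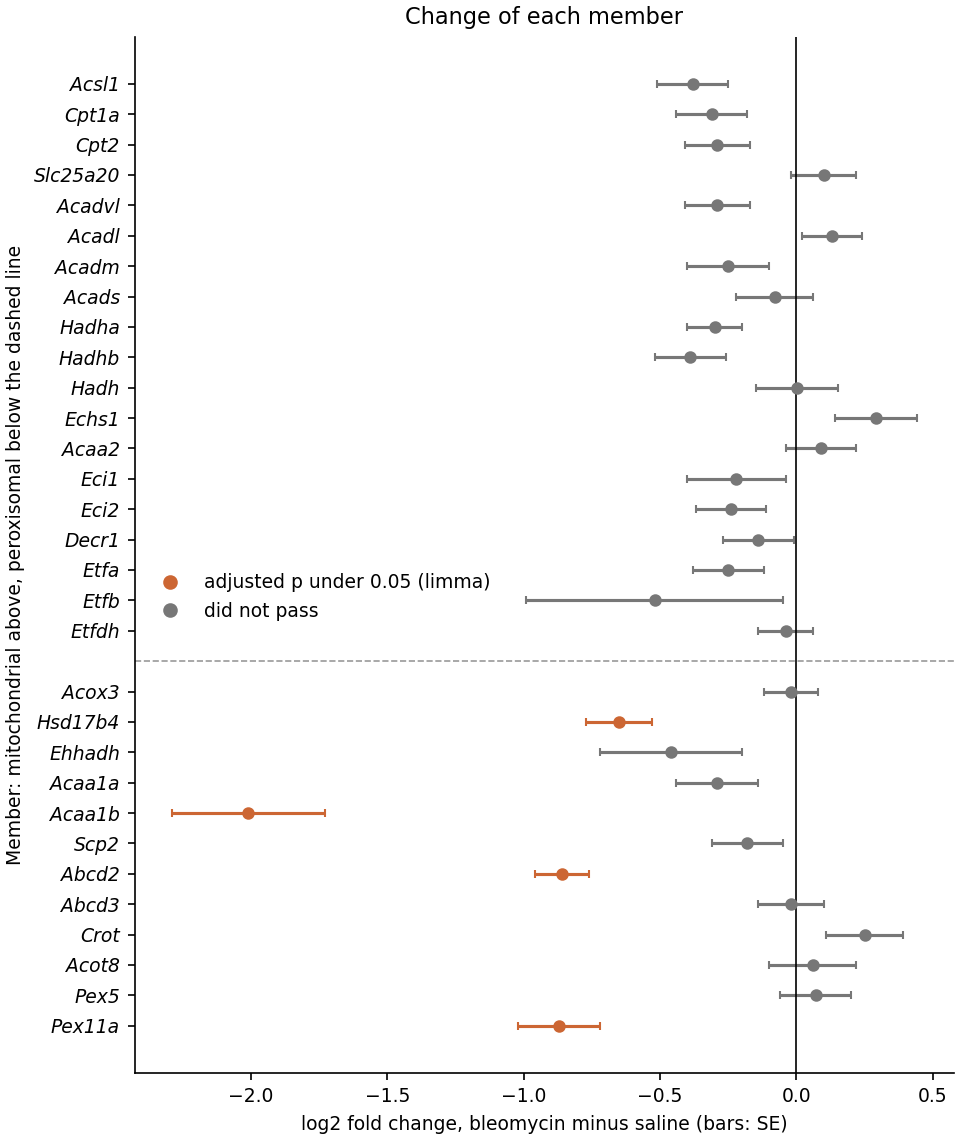
Log2 fold change of each member, bleomycin minus saline, on the log2(value + 1) scale, with its standard error as the bar (3 libraries a group). Abcd2, Hsd17b4, Acaa1b and Pex11a, in orange, passed limma's adjusted threshold of 0.05, and the 27 members in grey did not.

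Peroxisomal import is the first step of that arm, and 1 of its 2 transporters among the members fell. Abcd2 (ENSMUSG00000055782, chromosome 15, 91145871 to 91191799 on GRCm38) had normalized counts of 5768, 5659 and 5795 with saline against 3396, 2995 and 3125 with bleomycin. Every bleomycin library was below every saline library, and the spread within each group was small beside the gap. The means were 5741 ± 71.5 and 3172 ± 204 (SD, n = 3), a 1.81-fold fall (log2 -0.86 ± 0.10 (SE), limma adjusted p = 0.00102, and 0.00108 to 0.0106 with any 1 library left out). Abcd3, another acyl-CoA transporter of the peroxisomal membrane, had 957, 889.8 and 981 with saline against 873, 948 and 975 with bleomycin, and the groups overlapped (log2 -0.02 ± 0.12, limma adjusted p = 0.954). In saline libraries, per kb of the principal transcript, Abcd2 was at 1038 and Abcd3 at 270.2, and in bleomycin libraries Abcd2 was at 573 and Abcd3 at 267. Abcd2 thus stayed the higher of these 2 genes per length.

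The oxidase step showed no member that passed. Acox3, an acyl-CoA oxidase of branched substrates, had 8135, 7355 and 7565 with saline against 7699, 7521 and 7463 with bleomycin, with all 6 values within a narrow range (log2 -0.02 ± 0.10, limma adjusted p = 0.924). The groups overlapped.

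The next step can be carried out by either of 2 bifunctional enzymes. Hsd17b4 (ENSMUSG00000024507, chromosome 18, 50128201 to 50196269) had 10021, 8665 and 10597 with saline against 6805, 6228 and 5599 with bleomycin. The groups did not overlap, and the lowest value was in bleomycin replicate 5. It went from 9761 ± 992 to 6210.5 ± 603 (SD, n = 3), 1.57-fold lower (log2 -0.65 ± 0.12, limma adjusted p = 0.00939). It missed the threshold without bleomycin replicate 2 or 5 (limma adjusted p = 0.0551 and 0.0676). Ehhadh, the L-bifunctional protein and a well-known PPAR alpha target in liver, had 409.9, 629 and 294 with saline against 312, 272 and 342 with bleomycin. Saline replicate 2 was the highest and saline replicate 3 lay within the bleomycin range, so the groups overlapped (log2 -0.46 ± 0.26, limma adjusted p = 0.331). Per kb of transcript in saline, Hsd17b4 was at 3637, the highest of the 31 members, and Ehhadh at 149, the second lowest.

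Thiolases split the shortened chain from acetyl-CoA, and mice have 2 closely related genes for the main one. Acaa1b (ENSMUSG00000010651, chromosome 9, 119148023 to 119157093) had 3332, 3239 and 4408 with saline against 1448, 806 and 621 with bleomycin. All 3 bleomycin values were less than any saline value, and bleomycin replicate 1 was the highest of the 3. The mean went from 3659 ± 649.5 to 958 ± 434 (SD, n = 3), 4.03-fold lower (log2 -2.01 ± 0.28, limma adjusted p = 0.00236, 0.000194 to 0.013 with 1 library left out), the largest difference among the 31 members. Its relative Acaa1a had 4552, 5415 and 5298 with saline against 5146, 3830.2 and 3625 with bleomycin, and bleomycin replicate 1 lay inside the saline range (log2 -0.29 ± 0.15, limma adjusted p = 0.285). Without bleomycin replicate 1, Acaa1a passed as lower (log2 -0.45, limma adjusted p = 0.0461). Acaa1b made up 42.3%, 37.4% and 45.4% of the sum of both genes with saline, against 22%, 17.4% and 14.6% with bleomycin. These shares averaged 41.7% ± 4.02 and 18% ± 3.71 (SD, n = 3), and did not overlap. A two-sided exact permutation test gave p = 0.1, the smallest that 3 against 3 libraries allow. The shares are made from the same Acaa1b values as the fall above, so this test is no separate evidence of it. Of the 50-base windows of the Acaa1b principal transcript, 35.5% also occur in a transcript of Acaa1a and 46.2% in that of any other gene, Acaa1a included, so reads from these stretches cannot be assigned to 1 gene by sequence alone, and the levels of both genes are uncertain.

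Acaa1a and Acaa1b lie 182582 bases apart on chromosome 9 by their GENCODE positions, on opposite strands, and the regions before their RefSeq starts differ in their letters. The 250 bases before the RefSeq start of each, and of Pex11a, which also fell, are shown because 2 of these genes fell and the third is the near copy that did not pass. They are from RefSeq on GRCm38.p6 (chr9:119341044-119341293, plus strand; chr9:119157094-119157343, minus strand; chr7:79743132-79743381, minus strand), written 5′ to 3′ along each gene, with capitals marking a GC box (GGGCGG) or a CCAAT box (CCAAT) on either strand.
Acaa1a: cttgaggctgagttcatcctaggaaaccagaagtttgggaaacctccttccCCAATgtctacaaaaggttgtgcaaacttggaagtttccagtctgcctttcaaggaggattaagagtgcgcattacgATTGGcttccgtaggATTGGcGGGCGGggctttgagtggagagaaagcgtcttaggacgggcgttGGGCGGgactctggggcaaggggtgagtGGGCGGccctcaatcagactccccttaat
Acaa1b: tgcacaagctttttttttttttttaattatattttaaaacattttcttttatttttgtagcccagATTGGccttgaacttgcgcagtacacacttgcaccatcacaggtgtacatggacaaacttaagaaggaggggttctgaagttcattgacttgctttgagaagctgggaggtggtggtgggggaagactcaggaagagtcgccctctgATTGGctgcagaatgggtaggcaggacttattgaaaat
Pex11a: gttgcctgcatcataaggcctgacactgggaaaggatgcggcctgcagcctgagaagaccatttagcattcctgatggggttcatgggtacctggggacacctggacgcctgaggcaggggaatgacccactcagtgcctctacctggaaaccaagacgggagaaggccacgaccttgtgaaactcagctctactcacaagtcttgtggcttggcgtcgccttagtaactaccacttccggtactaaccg
The RefSeq start of Acaa1a differs from its GENCODE start at 119339676, so the region shown lies inside the gene as GENCODE places it. Regions of some other members, such as Scp2 and Eci2, also lie inside their GENCODE genes. The Acaa1a region held a GC box at 3 places and a CCAAT box at 3, the Acaa1b region a CCAAT box at 2 and no GC box, and the Pex11a region neither. G and C made up 53.6% of the Acaa1a region, 41.6% of that of Acaa1b and 55.6% of that of Pex11a, beside a median of 52.4% over 32851 regions of the same length. The response element of PPAR and its partner RXR, searched on both strands as a direct repeat of AGGTCA with 1 base between the copies, was found in the regions of 0 of the 27 members with a sequence. The same repeat of AGGNCA, and a TATA box (TATAAA), were likewise found in 0 of 27. These letters occurred in 0.0335%, 0.338% and 12.4% of all regions. A GC box was found for 19 of the 27 members, beside 32.7% of all regions, and a CCAAT box for 13, beside 33.8%. The units differ, since a member counted if any of its regions matched, whereas the percentages count regions. Acsl1, Abcd3 and Pex5 had additional regions, and Acsl1 had a CCAAT box only in its second region. These are matches of letters in 1 short window and say nothing on binding. Abcd2, Hsd17b4, Acaa2 and Decr1 had no sequence here.

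**Figure D2:**
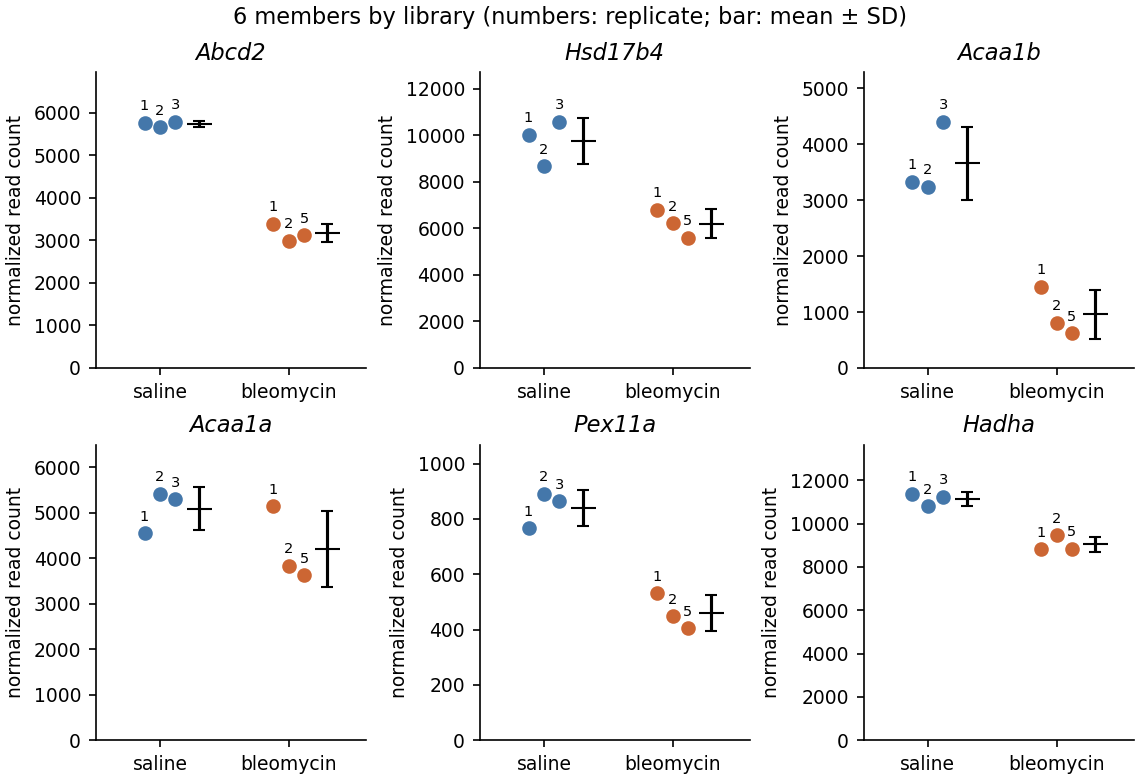
Normalized read counts of 6 members in each library, with the replicate number above each point and the mean ± SD of 3 libraries beside them; each vertical axis starts at 0. Saline and bleomycin points are apart for Abcd2, Hsd17b4, Acaa1b, Pex11a and Hadha, and overlap for Acaa1a because of bleomycin replicate 1.

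Scp2 encodes sterol carrier protein 2 and a thiolase of branched-chain substrates. It had 7692, 6894 and 8124 with saline against 7825, 6022 and 6292 with bleomycin, and bleomycin replicate 1 again lay within the saline range (log2 -0.18 ± 0.13, limma adjusted p = 0.464). Its sequence is shared with a pseudogene, Scp2-ps2, over 41.4% of 50-base windows.

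Products leave the peroxisome as carnitine esters or free acids, and neither gene of this step passed the test. Crot, carnitine octanoyltransferase, had 858, 679 and 825 with saline against 877, 916 and 1009 with bleomycin. All 3 bleomycin values were above the saline values, but the difference did not pass (log2 0.25 ± 0.14, limma adjusted p = 0.308). Acot8, an acyl-CoA thioesterase, had 376, 311 and 345 with saline against 411, 356 and 312 with bleomycin, with overlapping groups and a difference near 0 that changed sign with quantile normalization (log2 0.06 ± 0.16, limma adjusted p = 0.868).

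Of the 2 peroxins, which build and divide peroxisomes, 1 fell. Pex11a (ENSMUSG00000030545, chromosome 7, 79735957 to 79743131) had 767, 891 and 864 with saline against 531, 447 and 404 with bleomycin. The highest bleomycin value lay well below the lowest saline value, and the mean went from 841 ± 65.3 to 461 ± 64.4 (SD, n = 3), 1.83-fold lower (log2 -0.87 ± 0.15, limma adjusted p = 0.00568, 0.00371 to 0.0407 with 1 library left out). Pex5, the receptor that brings most enzymes into the peroxisome, had 868, 802 and 803 with saline against 941, 775 and 892 with bleomycin (log2 0.07 ± 0.13, limma adjusted p = 0.788). Its groups overlapped.

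Of the 15 resident macrophage markers, 9 fell in these libraries and 6 did not pass. The log2 difference was negative in 12 of them and positive in 3. Siglecf, a sialic acid receptor of resident alveolar macrophages, had 16187, 12651 and 14902 with saline against 8182, 7729 and 7228 with bleomycin (log2 -0.91 ± 0.12), beside log2 -0.86 for Abcd2, -0.87 for Pex11a, -0.65 for Hsd17b4 and -2.01 for Acaa1b. The summed resident list was highest in bleomycin replicate 1 among the bleomycin libraries, as were Abcd2, Hsd17b4, Acaa1b and Pex11a, and the summed monocyte list was lowest there. The integrin Itgax, another resident marker, had 59925, 48582 and 44236 with saline against 50901, 51996 and 56448 with bleomycin (log2 0.07 ± 0.15, limma adjusted p = 0.822). The part of cell makeup in the 4 falls was not tested.

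In the mitochondrial arm the log2 differences ran from -0.52 for Etfb to 0.29 for Echs1. With 1 library left out that of Etfb ranged from -0.93 to -0.13, and that of Echs1 from 0.15, without bleomycin replicate 1, to 0.38. Unadjusted limma p was under 0.05 for 6 of the 19 members, all lower, beside 10.3% of all genes tested that were lower at that p, and 15.6% that were higher. In 6 members every bleomycin value was below every saline value, and in 2 every one was above, beside 13.6% and 17.2% of all genes tested.

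Activation to acyl-CoA and entry through the carnitine shuttle come first. Acsl1, a long-chain acyl-CoA synthetase (ENSMUSG00000018796, chromosome 8, 46471037 to 46536051), had 3324, 3797 and 2781 with saline against 2460.4, 2396 and 2692 with bleomycin. The groups did not overlap, though the saline libraries ranged more widely than the bleomycin libraries (log2 -0.38 ± 0.13, limma adjusted p = 0.11). Cpt1a, the carnitine palmitoyltransferase of the outer membrane that controls entry, had 13148, 11073 and 10394 with saline against 8154, 9736 and 10014 with bleomycin. Its groups did not overlap but came close, since saline replicate 3 and bleomycin replicate 5 nearly met (log2 -0.31 ± 0.13, limma adjusted p = 0.186). Cpt2, the transferase of the inner membrane, had 1408, 1613 and 1573 with saline against 1375, 1253 and 1126 with bleomycin (log2 -0.29 ± 0.12, limma adjusted p = 0.177). Slc25a20, the carrier that exchanges acylcarnitine for carnitine, had 1459, 1244 and 1537 with saline against 1625, 1440.5 and 1482 with bleomycin, with overlapping groups and a positive difference (log2 0.10 ± 0.12, limma adjusted p = 0.68).

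The 4 acyl-CoA dehydrogenases, which differ in the chain length they oxidize, had differences of either sign, none of which passed. Acadvl, for very long chains, had 903, 877 and 984 with saline against 728, 762 and 762 with bleomycin, with no overlap (log2 -0.29 ± 0.12, limma adjusted p = 0.153). It shares 42.9% of its exon bases with Dvl2 on the opposite strand, so its level is uncertain. Acadl, for long chains, had 3309, 3592 and 3630.1 with saline against 4197, 3669 and 3659 with bleomycin, and here each bleomycin value was above each saline value, by a small margin (log2 0.13 ± 0.11, limma adjusted p = 0.53). Acadm and Acads, for medium and short chains, had log2 -0.25 ± 0.15 and -0.08 ± 0.14 (limma adjusted p = 0.354 and 0.802), and the groups overlapped in both, with bleomycin replicate 1 the highest bleomycin library.

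The later steps for long chains are carried out by the trifunctional protein, whose 2 subunits are Hadha and Hadhb. Hadha (ENSMUSG00000025745, chromosome 5, 30118304 to 30155162) had 11374, 10793 and 11232 with saline against 8820.3, 9455 and 8843 with bleomycin. All bleomycin values were below the saline values, and each group was tight (log2 -0.30 ± 0.10, limma adjusted p = 0.084). By DESeq2 on the recovered reads Hadha was called as lower (log2 -0.30, DESeq2 adjusted p = 0.0359), where DESeq2 called 5.69% of all genes lower. Hadhb (ENSMUSG00000059447, chromosome 5, 30155248 to 30184593) had 2613, 2357 and 2913 with saline against 2234, 1932 and 1865 with bleomycin, also without overlap (log2 -0.39 ± 0.13, limma adjusted p = 0.0859), and it passed without bleomycin replicate 1 (log2 -0.46, limma adjusted p = 0.0481). The 2 genes are neighbours on opposite strands with 85 bases between them. Hadhb shares 62.4% of its 50-base windows with other annotated genes, most of them with Gm13910, so its level is uncertain.

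Hadh, Echs1 and Acaa2, which carry out the later steps for shorter chains, had differences at or above 0, of which that of Hadh turned negative with TMM or quantile normalization. Hadh, the short-chain hydroxyacyl-CoA dehydrogenase, had 1685, 1857 and 2031 with saline against 2235, 1721 and 1654 with bleomycin, and its group means nearly coincided (limma adjusted p = 0.999). Echs1, the short-chain enoyl-CoA hydratase, had 1300.2, 1544 and 1586 with saline against 2184, 1589 and 1669 with bleomycin, the largest positive difference among the 31 members, and it did not pass (log2 0.29 ± 0.15, limma adjusted p = 0.292). It stood highest in bleomycin replicate 1, and the closest bleomycin and saline values nearly met. Echs1 shares 142 exon bases with Paox on the opposite strand. Acaa2, the mitochondrial thiolase, had 2066, 1949 and 2361 with saline against 2628, 2112 and 2077 with bleomycin, with overlapping groups (log2 0.09 ± 0.13, limma adjusted p = 0.744).

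Unsaturated fatty acids need isomerases and a reductase as well, and electron transfer flavoprotein carries the electrons onward. Eci2, an enoyl-CoA isomerase also found in peroxisomes, had 2729.9, 2728 and 3061 with saline against 2819.7, 2127 and 2294 with bleomycin (log2 -0.24 ± 0.13, limma adjusted p = 0.305). Eci1 and the dienoyl-CoA reductase Decr1 had log2 -0.22 ± 0.18 and -0.14 ± 0.13 (limma adjusted p = 0.523 and 0.576). In all 3 genes bleomycin replicates 2 and 5 lay below the saline range, and replicate 1 lay within it or, for Eci1, just above. Etfa, the alpha subunit of electron transfer flavoprotein, had 2415, 2611 and 2936 with saline against 2559, 2148 and 1985 with bleomycin with the same pattern (log2 -0.25 ± 0.13, limma adjusted p = 0.286). Etfb, its beta subunit, had the lowest level of the 31 members and varied within each group, with 82.4, 44.5 and 137 with saline against 95.2, 42.9 and 41.4 with bleomycin (log2 -0.52 ± 0.47, limma adjusted p = 0.566). It shares 53% of its exon bases with Gm45233, so this low level is uncertain. Etfdh, the oxidoreductase that passes the electrons to ubiquinone, had 1772, 1642 and 1740.3 with saline against 1638, 1739 and 1624 with bleomycin, with overlapping groups (log2 -0.04 ± 0.10, limma adjusted p = 0.852).

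**Figure D3:**
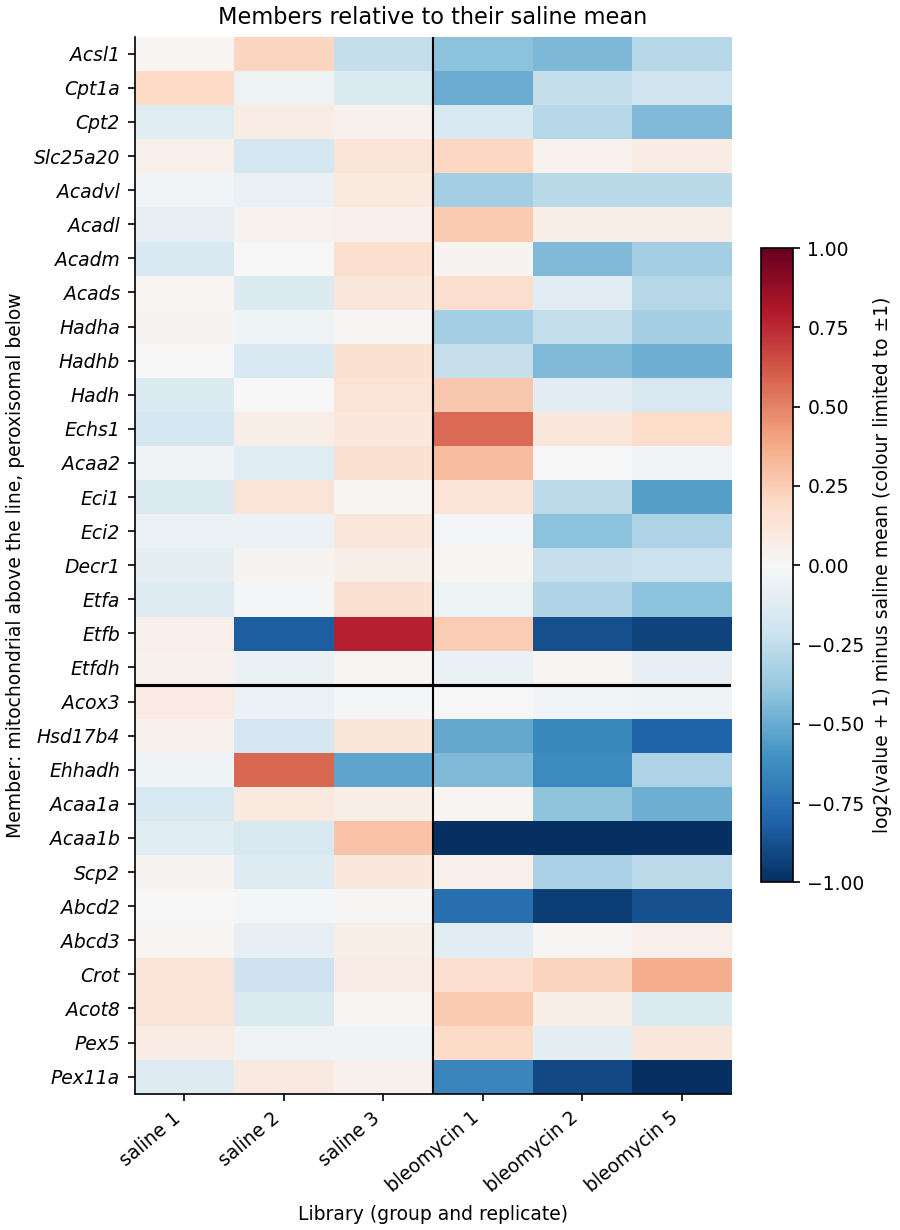
Each member (rows; mitochondrial above the line, peroxisomal below) in each library (columns), as log2(value + 1) minus that member's saline mean, with colour limited to ±1. Acaa1b, Abcd2, Pex11a and Hsd17b4 are blue in all 3 bleomycin libraries, and the median of the mitochondrial members is 0.02 in bleomycin replicate 1, -0.24 in replicate 2 and -0.28 in replicate 5.

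The bleomycin libraries differed among themselves across both arms. The median difference from the saline mean over the mitochondrial members was 0.02, -0.24 and -0.28 in bleomycin replicates 1, 2 and 5, and over the peroxisomal members -0.05, -0.37 and -0.28. Bleomycin replicate 1 was the highest bleomycin library for 23 of the 31 members. Summed values of the mitochondrial members were 56164, 54599 and 56504 with saline against 51184, 47868 and 47338 with bleomycin. Those of the peroxisomal members were 43734, 41428 and 45898 against 36264, 31117 and 30660. In the same libraries summed monocyte markers were 144648, 246062 and 271344, and the part of cell makeup in this order was not tested.

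Per kb of the principal transcript, the 3 highest members in saline were peroxisomal. Hsd17b4 was at 3637, Acaa1a at 2888 and Scp2 at 2867, followed by mitochondrial Hadha at 2772 and Cpt1a at 2673. Neighbours in this order such as Acaa1a and Scp2 were closer than the spread between libraries. Acaa1b was at 2167 per kb in saline and 567 in bleomycin libraries. The order depends on the length used, since with all annotated exons Acaa1a was 9th in place of 2nd and Hadha 8th in place of 4th, while Hsd17b4 stayed 1st.

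**Figure D4:**
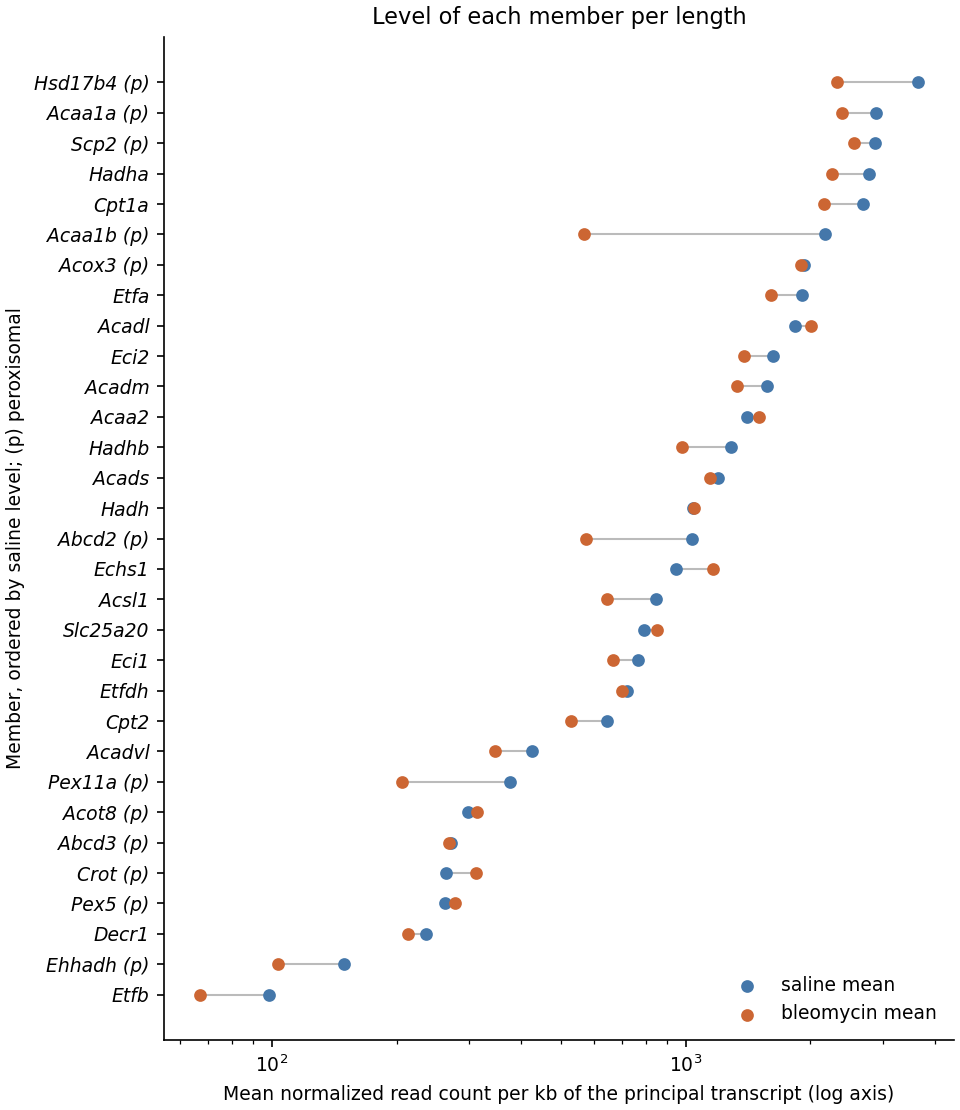
Mean normalized read count per kb of the principal transcript (log axis) of each member in saline (blue) and bleomycin (orange) libraries, ordered by the saline level, with (p) for peroxisomal genes. The 3 highest in saline are Hsd17b4, Acaa1a and Scp2, and the longest line is that of Acaa1b.

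The rest of the pathway was read from 7 lists of related genes, 139 in all, of which 117 were tested. Of these, 9 rose and 9 fell, beside 9.76% and 3.9% of all genes tested. Those are also the shares to set beside the counts of each list below. The median log2 difference over the 117 genes was -0.05. Of 11 tested genes of fatty acid uptake, activation and carnitine handling, 2 rose and 0 fell (median log2 0.23). The fatty acid transport protein Slc27a1 rose from 1334 ± 154 to 3193 ± 173 (SD, n = 3), 2.4-fold (log2 1.26 ± 0.12, limma adjusted p = 0.000411). Acsl3, an acyl-CoA synthetase of the endoplasmic reticulum and lipid droplets, rose 2.29-fold (log2 1.19 ± 0.18, limma adjusted p = 0.00294), whereas its relative Acsl1 had log2 -0.38. Slc27a3 had 49, 34.8 and 33.9 with saline against 57.5, 90.1 and 94 with bleomycin and did not pass by limma (adjusted p = 0.0631), though it did by DESeq2 (0.0322) and by limma without bleomycin replicate 1 (0.0351). Cpt1b, the muscle form of the entry enzyme, was below the filter, with 4.9, 0 and 2.12 with saline against 0, 3.3 and 5.17 with bleomycin. It shares 81.4% of its exon bases with Gm44502 on the same strand, so this low level is uncertain.

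Of 7 tested genes that set the level of malonyl-CoA, the inhibitor of Cpt1a, 0 passed by limma, and the median log2 was 0.20. Unadjusted limma p was under 0.05 for 3, with 1 lower and 2 higher, beside 10.3% and 15.6% of all genes tested. Prkaa1, a catalytic subunit of AMP-activated kinase, had 2238, 2195 and 2117 with saline against 2669, 2706 and 2636 with bleomycin (log2 0.29 ± 0.10, limma adjusted p = 0.0933). Its partner subunit genes Prkab1 and Prkag2 had log2 -0.35 ± 0.12 and 0.29 ± 0.13 (limma adjusted p = 0.0964 and 0.182).

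Of 23 tested genes of other mitochondrial acyl-CoA enzymes, 2 rose and 2 fell (median log2 -0.05). Oxct1, which lets cells use ketone bodies, had 3107, 2659.7 and 2767 with saline against 4293, 4193 and 4330.5 with bleomycin, with no overlap (log2 0.59 ± 0.10, limma adjusted p = 0.00705, or 0.0545 without bleomycin replicate 5). Ivd, an enzyme of leucine breakdown, rose 1.39-fold (limma adjusted p = 0.0354) and did not pass when any 1 library was left out (0.0629 to 0.173). Acot2, a mitochondrial acyl-CoA thioesterase, had 526, 474 and 485 with saline against 291, 299 and 283 with bleomycin and fell (log2 -0.76 ± 0.14, limma adjusted p = 0.00711, or 0.0533 without bleomycin replicate 5). Ech1, an isomerase of unsaturated chains in both organelles, had 7510.1, 7788 and 9168 with saline against 6265, 5193 and 4771 with bleomycin and fell (log2 -0.60 ± 0.14, limma adjusted p = 0.0219). For Ech1 the adjusted p was 0.0761, 0.114 and 0.128 when saline replicate 3, bleomycin replicate 2 or bleomycin replicate 5 was left out, and 0.0679 in limma without an intensity trend.

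Of 28 tested genes of other peroxisomal lipid and matrix proteins, 1 rose and 3 fell (median log2 -0.07). Nudt12, a peroxisomal hydrolase of NADH, had 197, 197 and 196 with saline against 109, 107 and 92.2 with bleomycin, with saline libraries almost equal and all bleomycin libraries lower (log2 -0.94 ± 0.18, limma adjusted p = 0.01, or 0.0551 and 0.07 without bleomycin replicate 2 or 5). Cat, the catalase that removes the hydrogen peroxide made by peroxisomal oxidases, had 8491, 9268 and 9412 with saline against 5415, 6870.4 and 6604 with bleomycin and fell (log2 -0.53 ± 0.12, limma adjusted p = 0.0224). The Cat fall was lost without either of saline replicates 2 and 3, without either of bleomycin replicates 2 and 5 (adjusted p = 0.0654, 0.0752, 0.0609 and 0.0832) and in limma without a trend (0.0677). Lonp2, a peroxisomal protease, fell 1.34-fold (limma adjusted p = 0.0465), which did not hold when any 1 library was left out (0.053 to 0.191). The gene that rose was Paox, a polyamine oxidase that takes no part in fatty acid breakdown, 2.65-fold (log2 1.41 ± 0.18, limma adjusted p = 0.00161).

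Of 17 other genes of peroxisome assembly and division, 1 rose and 0 fell (median log2 -0.03). Pex26, an anchor of the import receptor's recycling complex, had 62.8, 96.7 and 60.5 with saline against 128, 137 and 153 with bleomycin (log2 0.95 ± 0.25, limma adjusted p = 0.037), and it missed the threshold by edgeR (0.0518), with quantile normalization (0.0958), with no filter (0.052) and on leaving out any library other than saline replicate 2 (0.0558 to 0.181). Pex14, a docking protein, and Pex16, a membrane assembly factor, had log2 -0.50 ± 0.17 and -0.64 ± 0.21 (limma adjusted p = 0.0935 and 0.0952), and both passed as lower without bleomycin replicate 1 (0.0185 and 0.0212). Pex16 also passed by DESeq2 (adjusted p = 0.0438). Pex14 shares 28.3% of its exon bases with an antisense gene.

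Of 19 tested transcriptional regulators of oxidation, 0 rose and 1 fell (median log2 -0.14). Nrip1, a corepressor of nuclear receptors, had 2601, 2548 and 2706 with saline against 1465, 1834 and 1946 with bleomycin (log2 -0.59 ± 0.13, limma adjusted p = 0.0184, but 0.0643 without saline replicate 3, 0.0699 without bleomycin replicate 2 and 0.0557 without a trend). Among the PPAR receptors, Pparg had 10452, 7097 and 8719.5 with saline against 8791, 6516 and 6124 with bleomycin (log2 -0.29 ± 0.18, limma adjusted p = 0.372) and Ppard 2085, 1510.2 and 2013 with saline against 1615, 2215 and 2039 with bleomycin (log2 0.07 ± 0.17, limma adjusted p = 0.856), each with overlapping groups. Ppara was below the filter, with 0, 0 and 3.18 with saline against 0, 0 and 0 with bleomycin. The coactivator Ppargc1b had 190.2, 236 and 87 with saline against 150, 132 and 142 with bleomycin (limma adjusted p = 0.835), and Esrrg and Nrf1 had log2 -1.23 ± 0.37 and -0.33 ± 0.14 (limma adjusted p = 0.0645 and 0.185). The orphan receptor Esrrg passed as lower with quantile normalization (0.0319) or without a trend (0.0448).

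Of 14 tested genes known as PPAR targets outside these 2 pathways, 3 rose and 3 fell (median log2 -0.08). The falls were in Fabp1, a fatty acid binding protein, from 7804 ± 3378 to 977 ± 566 (SD, n = 3; limma adjusted p = 0.00186), in Cidec, a lipid droplet protein that is also among the resident markers, 3.14-fold (limma adjusted p = 0.00102), and in Ucp3, a carrier of the mitochondrial inner membrane, 2.05-fold (limma adjusted p = 0.00626). The rises were in Fabp5, 1.83-fold to 30009 (limma adjusted p = 0.00346), and in 2 genes near 0 in saline. Fabp3 had 0, 2.17 and 13.8 with saline against 44, 64.8 and 76.7 with bleomycin (limma adjusted p = 0.0158, and 0.00317 to 0.0788 with 1 library left out). Creb3l3 had 0.981, 2.17 and 3.18 with saline against 12.6, 13.2 and 25.9 with bleomycin (limma adjusted p = 0.0207, but 0.141 with quantile normalization).

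**Figure D5:**
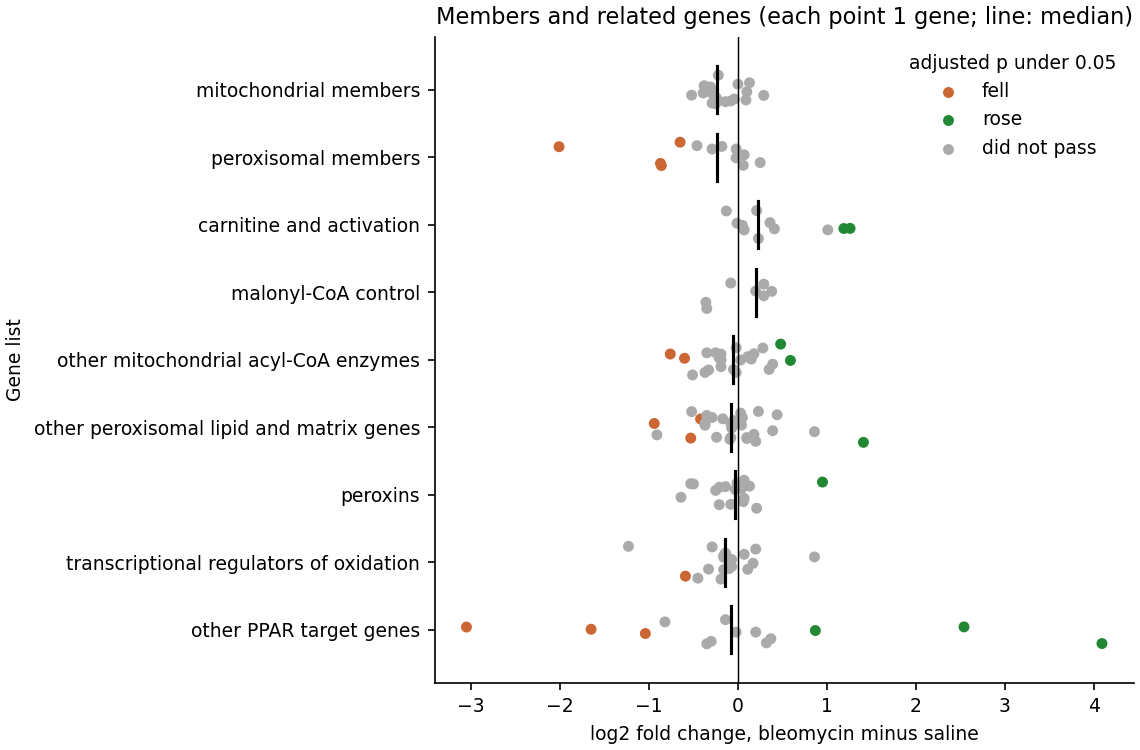
Log2 fold change, bleomycin minus saline, of each tested member and related gene (1 point a gene, spread vertically at random) by list, with the list's median as a line and genes past limma's adjusted threshold of 0.05 in colour. The peroxisomal members hold 4 points that fell and the mitochondrial members none, and the lists of related genes lie on both sides of 0.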

How the data were processed

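RNA was sequenced from 6 alveolar macrophage samples, 3 saline and 3 bleomycin, grouped by the titles in the labels. The submitters' processing notes name the genome mm10 and the tools DESeq2, HTSeq 0.6.0, STAR 2.5.2b and bcl2fastq 2.18.0.12, without saying what each did or whether reads were counted by strand. From the values, the deposited table holds a normalized signal, the reads of a gene over the size factor of its library. Dividing each library by its value of 1 read gave whole reads for 100% of values above 0 (within 0.05 of a read), 27654799 to 37147983 per library. The deposited values were put on the log2(value + 1) scale and tested in R 4.3.3 by limma 3.58.1 with an intensity trend, for the 13512 genes that reached 10 in 3 or more libraries; fold changes on this scale understate changes of low genes. The fit was also run on simulated counts, and the outcome is not reported here. Positions and lengths are from GENCODE M21 on GRCm38, the assembly mm10 names; a symbol was found for 22873 of 22962 identifiers. The principal transcript is the one APPRIS ranks first, the longest where several tie.

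Other settings tried were a pseudocount of 0.5 or 5, no filter, a minimum of 50, TMM and quantile scaling, no trend, robust variances, edgeR 4.0.16 (1821 genes called) and DESeq2 1.42.0 on recovered reads, a replicate block, and each library left out. The members, lists and tests were chosen with earlier results of these data known. Named genes were all members and, of each related list, the 3 smallest p and every called gene up to 6, with 4 PPAR regulators; Siglecf, Itgax and Cpt1b were named after their values were seen. Without knowledge of strand, reads of overlapping genes cannot be separated; 12 members share exon bases with another gene.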

Additional observations from a re-analysis of the deposited data

How the results depend on the processing

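Over the alternatives named above, Acaa1b and Abcd2 passed as lower in every one, and edgeR called the same 4 members. Counts of calls over all genes, mitochondrial members, peroxisomal members and related genes (1846, 0, 4 and 18) ranged from 664 to 1675, 0 to 1, 3 to 5 and 8 to 21 with 1 library left out, and without bleomycin replicate 2 or 5 the count over all genes was 688 or 664. Without bleomycin replicate 1 the additional members were Hadhb and Acaa1a, and by DESeq2 1 mitochondrial member, Hadha, was called.

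Adding a replicate block changed these counts to 1147, 0, 2 and 8, and Hsd17b4 and Pex11a did not pass (limma adjusted p = 0.35 and 0.144). The block rests on numbers 1 and 2 alone, because 3 and 5 each occur in 1 group. Across genes, deviations of libraries with the same number had r = -0.201 for number 1 and 0.024 for number 2. Unlike numbers gave r from -0.169 to 0.229. Deviations were taken from the mean of each group of 3 libraries, which constrains these values. They cannot show whether libraries with the same number were paired or shared a batch. With the block the median log2 difference was -0.08 over the mitochondrial and -0.12 over the peroxisomal members.

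Uncalled differences changed sign: Etfb (-0.52 to 0.08) and Acads (-0.08 to 0.09) with the block, Hadh (-0.00142) with TMM, and Hadh (-0.02), Acox3 (0.02) and Acot8 (-0.01) with quantile normalization. With 1 library left out, log2 differences ranged from -0.20 to 0.03 for Acads, -0.13 to 0.08 for Hadh, -0.02 to 0.17 for Acaa2, -0.05 to 0.02 for Acox3, -0.06 to 0.03 for Abcd3, -0.04 to 0.16 for Acot8, -0.08 to 0.20 for Ppard and -0.58 to 0.13 for Ppargc1b. The cause of these changes was not tested, other than the fewer samples in fits without a library. The lowest member, Etfb, rests on 447 reads over the 6 libraries; the other members' precision is set by the spread between 3 libraries a group.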
